A study of Mus musculus with 10 samples.

Results

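Fbp1, which encodes the liver-type fructose-1,6-bisphosphatase, was followed together with its paralogue Fbp2, the hexokinase genes Hk1, Hk2 and Hk3, the phosphofructokinase genes Pfkl, Pfkm and Pfkp, the lactate dehydrogenase gene Ldha and the glucose transporter gene Slc2a1. The 10 genes were found by symbol among 18193 genes measured. Where a gene has several probe sets, the one with the highest mean on the 10 arrays was used and the others served as a check. Fbp1 was chosen by its own measured rise over the vector in these arrays, so its levels are described without a test. The other 9 were tested in a fit of all genes. They too were chosen with earlier results of these data known, so counts of them are descriptive.

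The cells were bone marrow cells of C57BL/6 mice aged 5 to 6 weeks, depleted of lineage-positive cells and enriched for Sca1. They were held in medium with the cytokines IL-6 (20 ng/ml), SCF (10 ng/ml) and IL-3 (10 ng/ml) and spun with retrovirus in 2 rounds, 24 hours apart. Cells that were live, lineage-negative, positive for Sca1 and cKit and GFP-positive were sorted 48 hours after the second round, 25000 a sample, and all groups shared this procedure. The GFP group (3 arrays) received the empty MigR1 vector with its GFP marker, the AML1/ETO group (3 arrays) the fusion of the transcription factor RUNX1 (AML1) with ETO, and the W692A group (4 arrays) the same fusion with a substitution named W692A. The series concerns the MYND domain of ETO, a zinc-binding module, and its contact with the corepressors SMRT and N-CoR. The labels call the transductions independent without saying that the mice differed, so p-values measure the spread between these samples, which may be technical.

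Glucose enters blood cells through facilitative transporters such as GLUT1 (Slc2a1), is trapped as glucose 6-phosphate by hexokinase, and is committed to glycolysis by phosphofructokinase, which adds a second phosphate to fructose 6-phosphate. Fructose-1,6-bisphosphatase removes that phosphate again, a step of gluconeogenesis best known from liver and kidney, and lactate dehydrogenase turns pyruvate into lactate. Hexokinases and phosphofructokinases each come as several isoenzymes with different tissue patterns: HK1 is widespread, HK3 is a myeloid form, and PFKM, PFKL and PFKP are named for muscle, liver and platelets.

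All values are log2 intensities, on which a difference of 1 is a 2-fold change, and probe sets differ in sensitivity, so levels are compared between groups and never between genes. Signals at or below 2.04, the brightest bacterial control probe set on any array, are treated as background, which held for 63.8% of all probe sets on every array. Correlations were 0.984 to 0.992 within groups and 0.892 to 0.965 between groups over the 8820 genes with a group mean above that bound. Kit, the gene of the sorted marker cKit, lay below the bound on every array (0.95 to 1.97), whereas Ptprc, the pan-leukocyte gene of CD45, was bright (8.14 to 9.10) and the progenitor genes Cd34 (4.79 to 6.90), Meis1 (4.96 to 5.71) and Flt3 (4.00 to 5.20) were above the bound throughout. Mycn, a MYC family gene, was among the bright signals (10.6 to 11.3). AML1/ETO replicate 3 stood apart from its group. Its Gapdh 3′ minus 5′ control difference, a measure of RNA integrity, was 5.04, while replicates 1 and 2 gave 4.08 and 4.01. The measure was 4.83 to 4.99 on GFP arrays and 3.81 to 4.17 on W692A arrays. In this measure the W692A and GFP groups did not overlap, and results that change with it as a covariate are marked.

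Fbp1 was at background with the vector and bright with both constructs. Its values were 1.51, 1.56 and 1.63 on the GFP arrays, 7.84, 8.11 and 7.62 on the AML1/ETO arrays, and 6.20, 6.74, 6.50 and 6.77 on the W692A arrays. No 2 groups overlapped, and the order of the levels was AML1/ETO, W692A, GFP. Group means were 7.86 ± 0.246 (SD, n = 3) with AML1/ETO, 6.55 ± 0.265 (n = 4) with W692A and 1.57 ± 0.0596 (n = 3) with GFP. With the GFP arrays set to the background bound, at least 56.4-fold more signal was measured with AML1/ETO and at least 22.8-fold more with W692A. Between the constructs it was 2.47-fold lower with W692A, a log2 difference of -1.31. Only 1 probe set names Fbp1, so no second one could check these levels.

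**Figure D1:**
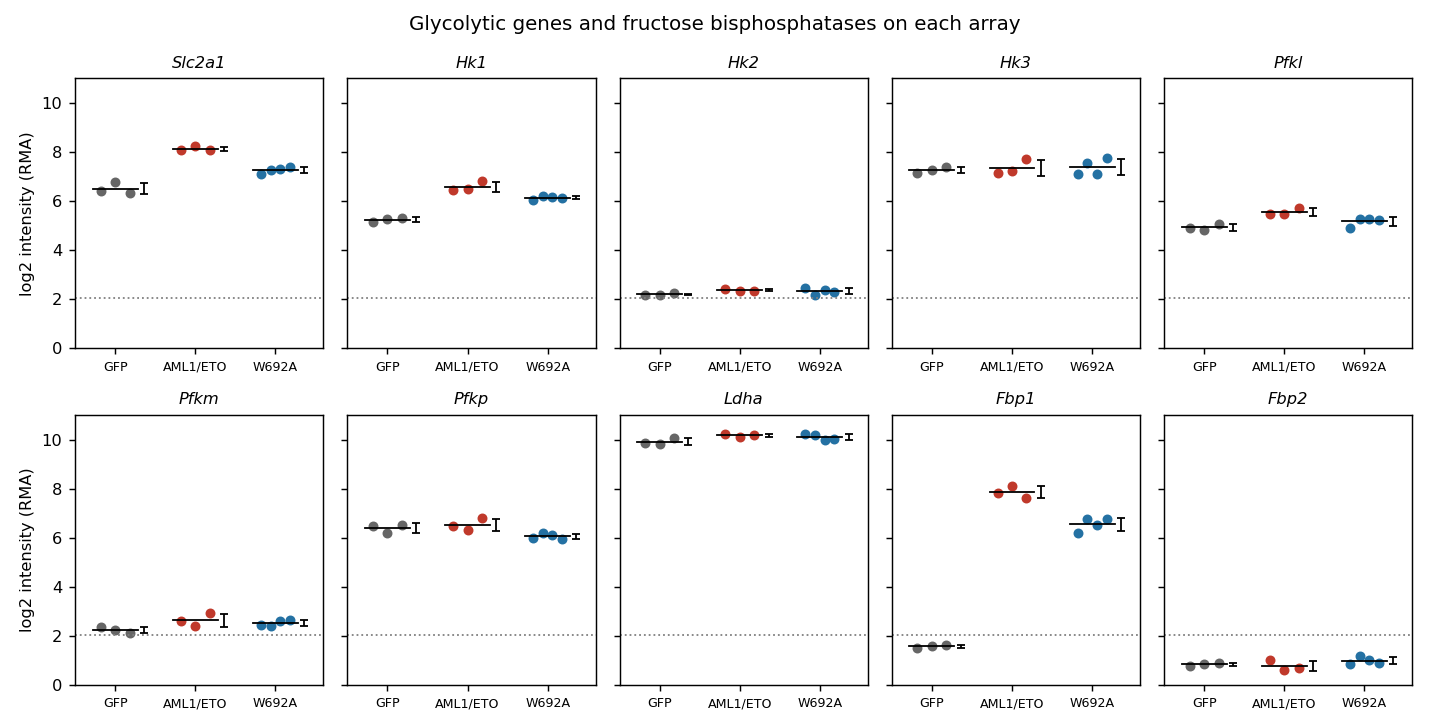
Log2 intensity (RMA) of each of the 10 genes on each array, by group (GFP, AML1/ETO, W692A); points are arrays, horizontal lines group means, bars ± SD beside them, and the dotted line is the background bound of 2.04. Fbp1 lies below the line on all 3 GFP arrays and between 6.20 and 8.11 on the other arrays, Slc2a1 and Hk1 form 3 separate steps, and Fbp2 stays below the line on every array.

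Its paralogue Fbp2, the muscle-type enzyme, was at background on all 10 arrays. The values ran from 0.77 to 0.88 with GFP, from 0.61 to 1.00 with AML1/ETO and from 0.86 to 1.16 with W692A, and the groups overlapped. No fold is given where both groups are at background. Of 6 liver and kidney genes, among them Alb and Umod, all 6 also lay below the bound on every array.

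Start-site sequence was available for all 10 genes, as 15 windows from 250 bases before to 50 bases after an annotated start (RefSeq, GRCm38.p6). Those of Fbp1, Slc2a1 and Hk1 are shown because in these genes no 2 groups overlapped, with 2 annotated starts for Hk1. Letters in capitals mark matches, on either strand, to the RUNX core TGTGGT or to ACGTG, the core of hypoxia response elements. The Fbp1 window is chr13:62888233-62888532 (minus strand), that of Slc2a1 chr4:119108495-119108794 (plus strand), and those of Hk1 chr10:62379859-62380158 and chr10:62340372-62340671 (both minus strand).
Fbp1: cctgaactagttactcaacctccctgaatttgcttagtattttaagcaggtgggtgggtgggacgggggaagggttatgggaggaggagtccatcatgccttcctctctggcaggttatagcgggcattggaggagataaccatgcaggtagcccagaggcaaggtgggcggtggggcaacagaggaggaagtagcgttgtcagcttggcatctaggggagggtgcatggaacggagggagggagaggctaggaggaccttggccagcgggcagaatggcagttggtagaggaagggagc
Slc2a1: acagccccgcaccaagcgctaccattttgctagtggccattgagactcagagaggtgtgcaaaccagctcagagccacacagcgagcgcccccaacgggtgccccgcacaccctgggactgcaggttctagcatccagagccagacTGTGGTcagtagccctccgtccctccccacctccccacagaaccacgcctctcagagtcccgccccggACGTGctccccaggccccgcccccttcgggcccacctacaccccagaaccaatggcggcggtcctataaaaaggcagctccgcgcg
Hk1, first window: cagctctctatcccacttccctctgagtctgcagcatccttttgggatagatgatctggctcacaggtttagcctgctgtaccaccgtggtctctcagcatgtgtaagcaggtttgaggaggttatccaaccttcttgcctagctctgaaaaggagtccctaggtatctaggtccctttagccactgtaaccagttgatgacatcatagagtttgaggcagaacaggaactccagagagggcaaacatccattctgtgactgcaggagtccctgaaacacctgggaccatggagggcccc
Hk1, second window: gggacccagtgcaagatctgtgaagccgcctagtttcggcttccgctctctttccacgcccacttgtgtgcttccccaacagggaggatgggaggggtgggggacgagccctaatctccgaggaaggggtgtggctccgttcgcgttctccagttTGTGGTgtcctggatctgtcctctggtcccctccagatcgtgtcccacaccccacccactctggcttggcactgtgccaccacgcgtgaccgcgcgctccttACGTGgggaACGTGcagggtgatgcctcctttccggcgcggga

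The Fbp1 window holds neither motif, nor does the first Hk1 window. That of Slc2a1 has TGTGGT beginning at base -104 from the start and ACGTG at -36, and the second Hk1 window has TGTGGT at -95 and ACGTG at 8 and 17. Over the 10 genes 5 of 15 windows hold the RUNX core, those of Slc2a1, Hk1, Hk2, Hk3 and Pfkp, and 8 of 15 hold ACGTG. Of all 32851 mouse windows 16.8% hold the RUNX core and 19.6% hold ACGTG. Hk3, with 2 RUNX cores, and Hk2, with 1, did not pass in any comparison. Slc2a1, Hk1 and Pfkp, with 1 each, passed in at least 1. Of the tested genes without the core, Pfkl and Pfkm passed in at least 1 and Fbp2 and Ldha in none. A link between motif and call was not tested. A match is a description of letters and not of a bound site.

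The genes whose patterns over the 10 arrays were most like that of Fbp1, by Pearson correlation among 8819 genes with a group mean over 2.04, were Ctla2b (0.995) and Ctla2a (0.992), which encode cathepsin inhibitor-like proteins, Hlf, a transcription factor of stem cells (0.992), Ang, a ribonuclease (0.992), and Glg1, a Golgi glycoprotein (0.991). The arrays fall into 3 groups, so these values mostly describe group steps of like proportion, and they carry no p-value. Ctla2b ran from 5.50 to 5.76 with GFP, from 10.5 to 10.8 with AML1/ETO and from 9.42 to 9.69 with W692A. Among the glycolytic genes Hk1 ranked 62 (0.964) and Slc2a1 ranked 254 (0.908), while Pfkp ranked 4215 (-0.11).

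Against the vector, 4 of the 9 tested genes rose with AML1/ETO (Slc2a1, Hk1, Pfkl and Pfkm), 0 fell and 5 did not pass the limma test. Over all genes, which include genes at background, 28.6% passed in this comparison, 12.9% higher and 15.8% lower. The median log2 difference of the 9 genes was 0.27, against -0.02 over all genes. At an unadjusted limma p under 0.05, 5 were higher and 0 lower. The AML1/ETO and GFP arrays did not overlap for 6 of 9 genes, compared with 39.1% of all genes (18.1% higher, 21% lower). With W692A 2 of 9 rose (Slc2a1 and Hk1) and 0 fell, where 14.5% of all genes passed, 5.45% of them higher and 9.07% lower as shares of all genes, and the medians were 0.20 and 0.01. At an unadjusted limma p under 0.05, 3 were higher and 1 lower, and 3 of 9 did not overlap, compared with 22.3% (9.85% higher, 12.5% lower). Between the constructs 4 of 9 were lower with W692A (Slc2a1, Hk1, Pfkl and Pfkp) and 0 higher, where 20.7% of all genes passed, 9.61% higher and 11.1% lower. The unadjusted counts were the same, 4 lower and 0 higher, and 4 of 9 did not overlap, compared with 27.2% (13.7% higher, 13.5% lower). The median was -0.10, against 0.03 over all genes. The comparisons share arrays, the GFP arrays in both constructs' comparisons with the vector, so their counts are not independent of each other.

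**Figure D2:**
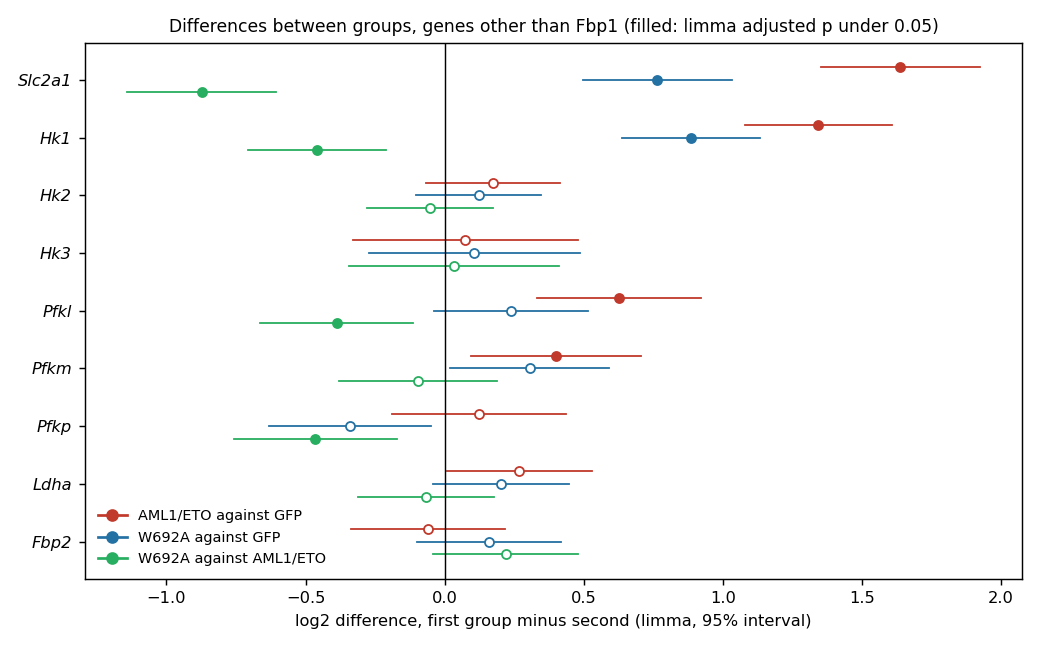
Log2 difference between groups (horizontal axis, first group minus second) for the 9 tested genes, with 95% intervals from limma; colours mark the comparison and filled points passed at an adjusted p under 0.05. Slc2a1 and Hk1 passed in all 3 comparisons, Slc2a1 at 1.64, 0.76 and -0.87 and Hk1 at 1.34, 0.89 and -0.46, whereas the intervals of Hk2, Hk3 and Fbp2 include 0 in each.

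Among the 9 tested genes Slc2a1 differed most with AML1/ETO against GFP and between the constructs, and Hk1 with W692A against GFP. Slc2a1, which encodes GLUT1, the basal glucose transporter of blood cells, measured 6.39, 6.76 and 6.34 with GFP, 8.08, 8.23 and 8.10 with AML1/ETO and 7.10, 7.25, 7.32 and 7.38 with W692A. Each AML1/ETO array exceeded each W692A array, and each W692A array exceeded each GFP array. The rise was 3.11-fold with AML1/ETO (1.64 ± 0.134 on the log2 scale, SE; limma adjusted p = 2.81e-07) and 1.70-fold with W692A (0.76 ± 0.125, limma adjusted p = 0.000718). W692A was 1.83-fold below AML1/ETO (-0.87 ± 0.125, limma adjusted p = 0.000132). With the Gapdh 3′ minus 5′ difference as a covariate the W692A difference from GFP was 0.75 but no longer passed (limma adjusted p = 0.105).

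The other probe sets of Slc2a1 gave the same order. The second ran from 5.69 to 5.92 with GFP, from 7.29 to 7.52 with AML1/ETO and from 6.26 to 6.37 with W692A, and the third from 2.20 to 2.43, from 3.75 to 3.99 and from 2.74 to 2.88. For both, no 2 groups overlapped. Tested among all probe sets, all 3 passed in each of the 3 comparisons, at 1.52 to 1.64 for AML1/ETO against GFP, 0.46 to 0.76 for W692A against GFP and -1.08 to -0.87 for W692A against AML1/ETO.

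**Figure D3:**
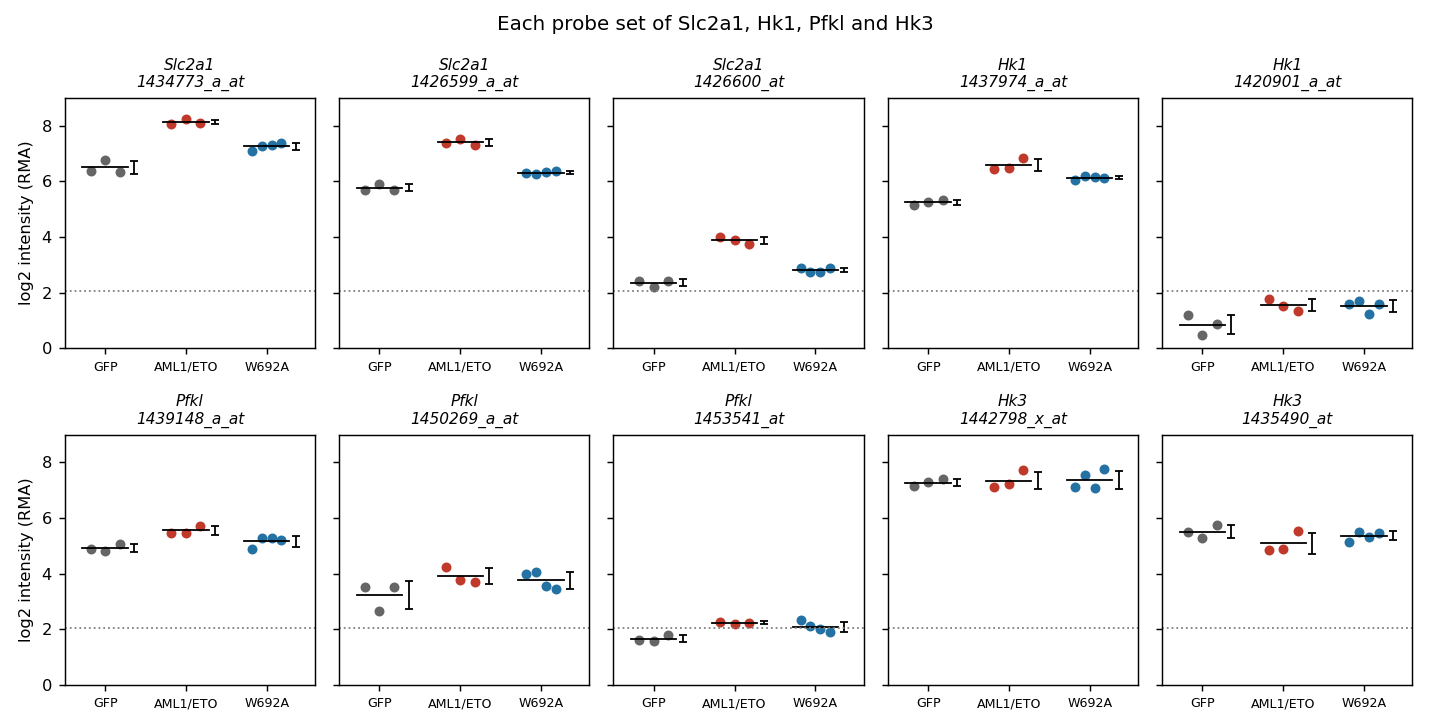
Log2 intensity (RMA) on each array for every probe set of Slc2a1 (3), Hk1 (2), Pfkl (3) and Hk3 (2), titled by gene and probe set; points are arrays, lines group means, bars ± SD and the dotted line the background bound of 2.04. The 3 Slc2a1 probe sets show the same 3 steps at different brightness, the second Hk1 probe set lies below the bound on every array, and the 2 Hk3 probe sets differ in where the AML1/ETO arrays fall.

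Hexokinase 1 showed the same 3 steps. Hk1 measured 5.15, 5.27 and 5.31 with GFP, 6.46, 6.48 and 6.83 with AML1/ETO and 6.06, 6.19, 6.16 and 6.12 with W692A, and no 2 groups overlapped. It rose 2.54-fold with AML1/ETO (1.34 ± 0.124, SE, limma adjusted p = 8.78e-07) and 1.85-fold with W692A (0.89 ± 0.116, limma adjusted p = 9.87e-05). W692A lay 1.37-fold below AML1/ETO (-0.46 ± 0.116, limma adjusted p = 0.0101). That last call ended without AML1/ETO replicate 3, the brightest array (-0.34, limma adjusted p = 0.0695), with the Gapdh covariate (-0.33, limma adjusted p = 0.0751), and with the mean of the gene's probe sets (-0.24, limma adjusted p = 0.108). The second probe set of Hk1 was at background throughout (0.48 to 1.78) and gives no fold.

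The other hexokinases did not pass in any comparison. Hk2, the insulin- and hypoxia-responsive form, was close to background, at 2.18 to 2.23 with GFP, 2.34 to 2.42 with AML1/ETO and 2.17 to 2.46 with W692A. Its AML1/ETO and GFP arrays did not overlap, yet the difference was 0.17 (95% interval -0.07 to 0.42, limma adjusted p = 0.319). Hk3 was bright in every group, at 7.15, 7.28 and 7.40 with GFP, 7.12, 7.21 and 7.71 with AML1/ETO and 7.12, 7.55, 7.10 and 7.76 with W692A, and the groups overlapped. Its differences from GFP were 0.07 (95% interval -0.33 to 0.48) with AML1/ETO and 0.11 (-0.27 to 0.48) with W692A.

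For Hk3 the second probe set differed from the first. The first carries the suffix x, by which Affymetrix marks probes that may also match other transcripts. On the second probe set the values were 5.48, 5.29 and 5.76 with GFP, 4.86, 4.89 and 5.53 with AML1/ETO and 5.15, 5.50, 5.33 and 5.47 with W692A. AML1/ETO replicates 1 and 2 lay below every GFP array on the second probe set while replicate 3 lay among them, and the difference from GFP was -0.42 ± 0.179 (SE, limma adjusted p = 0.123 over all probe sets). Among 14 neutrophil markers, S100a8 measured 4.53, 4.13 and 6.37 and S100a9 3.06, 2.87 and 4.66 on AML1/ETO replicates 1, 2 and 3. Mmp8 (3.83, 3.65 and 2.72) and Prtn3 (8.51, 8.82 and 8.29) were lowest on replicate 3. The mean of the 14 was 5.47 on replicate 3 against 4.73 and 4.68 on replicates 1 and 2, 5.15 to 5.50 on GFP arrays and 4.56 to 5.02 on W692A arrays. Of the 14 markers 2 were higher and 7 lower than GFP with AML1/ETO, as with W692A. Shares over all genes were 12.9% higher and 15.8% lower with AML1/ETO, and 5.45% and 9.07% with W692A. Mmp9 was the 1 marker below the bound on every array, and their part in the Hk3 values was not tested.

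Phosphofructokinase isoenzymes moved by smaller amounts. Pfkl, the liver-type subunit, measured 4.89, 4.81 and 5.08 with GFP, 5.47, 5.46 and 5.73 with AML1/ETO and 4.88, 5.28, 5.28 and 5.21 with W692A. The AML1/ETO arrays exceeded all others, and the W692A and GFP arrays overlapped. Pfkl rose 1.54-fold with AML1/ETO (0.63 ± 0.138, SE, limma adjusted p = 0.00255). With W692A the difference from GFP was 0.24 (95% interval -0.04 to 0.51, limma adjusted p = 0.276). W692A was 1.31-fold lower than AML1/ETO (-0.39 ± 0.129, limma adjusted p = 0.0453), a call close to the threshold that was lost in 14 of 22 alternative fits, among them those without AML1/ETO replicate 3 (-0.30, limma adjusted p = 0.201) or W692A replicate 1 (-0.29, limma adjusted p = 0.12). Leaving out GFP replicate 1 or 2, AML1/ETO replicate 1 or 2, or W692A replicate 4 also ended it, with limma adjusted p from 0.0509 to 0.0739. So did the Gapdh covariate (-0.29, limma adjusted p = 0.217).

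The other 2 probe sets of Pfkl also had higher means with AML1/ETO than with GFP, by 0.66 (limma adjusted p = 0.0564 over all probe sets) and 0.58 (limma adjusted p = 0.00348). Between the constructs they differed by -0.13 and -0.14 and did not pass. On the third, which was below the bound on all GFP arrays, W692A exceeded GFP by 0.43 (limma adjusted p = 0.0298), so that the probe sets of Pfkl disagree on the place of W692A between the other groups.

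Pfkm, the muscle-type subunit, was close to background, at 2.34, 2.24 and 2.11 with GFP, 2.59, 2.38 and 2.92 with AML1/ETO and 2.45, 2.41, 2.62 and 2.66 with W692A. The GFP arrays were the lowest 3 of the 10. The AML1/ETO difference of 0.40 ± 0.143 passed narrowly (SE, limma adjusted p = 0.0473) and was lost in 17 of 22 alternative fits, among them those without AML1/ETO replicate 3 (0.26, limma adjusted p = 0.239) and without GFP replicate 3 (0.34, limma adjusted p = 0.153). The fits that left out GFP replicate 1 or 2, AML1/ETO replicate 1, or any 1 of the W692A arrays also ended it, with limma adjusted p between 0.051 and 0.0939. The W692A difference of 0.31 (95% interval 0.02 to 0.59) did not pass after adjustment (limma adjusted p = 0.159).

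Pfkp, the platelet-type subunit, took another course. It measured 6.49, 6.18 and 6.53 with GFP, 6.46, 6.30 and 6.81 with AML1/ETO and 6.00, 6.19, 6.09 and 5.95 with W692A. The W692A arrays lay below every AML1/ETO array, and just 1 of them, replicate 2 at 6.19, reached the range of GFP. Pfkp was 1.38-fold lower with W692A than with AML1/ETO (-0.46 ± 0.137, SE, limma adjusted p = 0.0243), with -0.34 against GFP (95% interval -0.63 to -0.05, limma adjusted p = 0.121) and 0.12 for AML1/ETO against GFP (-0.19 to 0.44, limma adjusted p = 0.639). The call between the constructs ended in 7 of 22 alternative fits: without AML1/ETO replicate 1 (-0.50, limma adjusted p = 0.0504) or 3 (-0.32, limma adjusted p = 0.148), without W692A replicate 1 (-0.44, limma adjusted p = 0.0507) or 4 (-0.43, limma adjusted p = 0.0676), with the Gapdh covariate (-0.33, limma adjusted p = 0.15), with the replicate block (-0.43, limma adjusted p = 0.053) and with the mean of the probe sets (-0.15, limma adjusted p = 0.273). The 2 other probe sets of Pfkp were at background on every array.

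Lactate dehydrogenase A stayed within a narrow range. Ldha measured 9.85, 9.80 and 10.08 with GFP, 10.24, 10.12 and 10.17 with AML1/ETO and 10.25, 10.19, 9.98 and 10.02 with W692A. The AML1/ETO arrays exceeded the GFP arrays, by 0.27 on average (95% interval 0.01 to 0.53), but the difference did not pass after adjustment (limma adjusted p = 0.129). For W692A the difference from GFP was 0.20 (-0.04 to 0.45, limma adjusted p = 0.301), and the constructs differed by -0.07 (-0.31 to 0.18).

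Further genes of glucose metabolism were taken from 7 lists with 95 members, also chosen with earlier results of these data known. Of the 95, 86 were measured and 50 had a group mean above background. Gpi1, Eno1, Gapdh and G6pdx were among those not analysed here. With AML1/ETO 17 of 86 rose, 12 fell and 57 did not pass, which is 33.7% called against 28.6% of all genes. With W692A 4 rose, 7 fell and 75 did not pass (12.8% against 14.5%). Between the constructs 5 were higher and 13 lower with W692A (20.9% against 20.7%). The median log2 differences of the 86 genes were -0.02, -0.01 and 0.03, and those of all genes -0.02, 0.01 and 0.03. The shares were near the background in each comparison, and the genes described next are those that moved within that share.

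**Figure D4:**
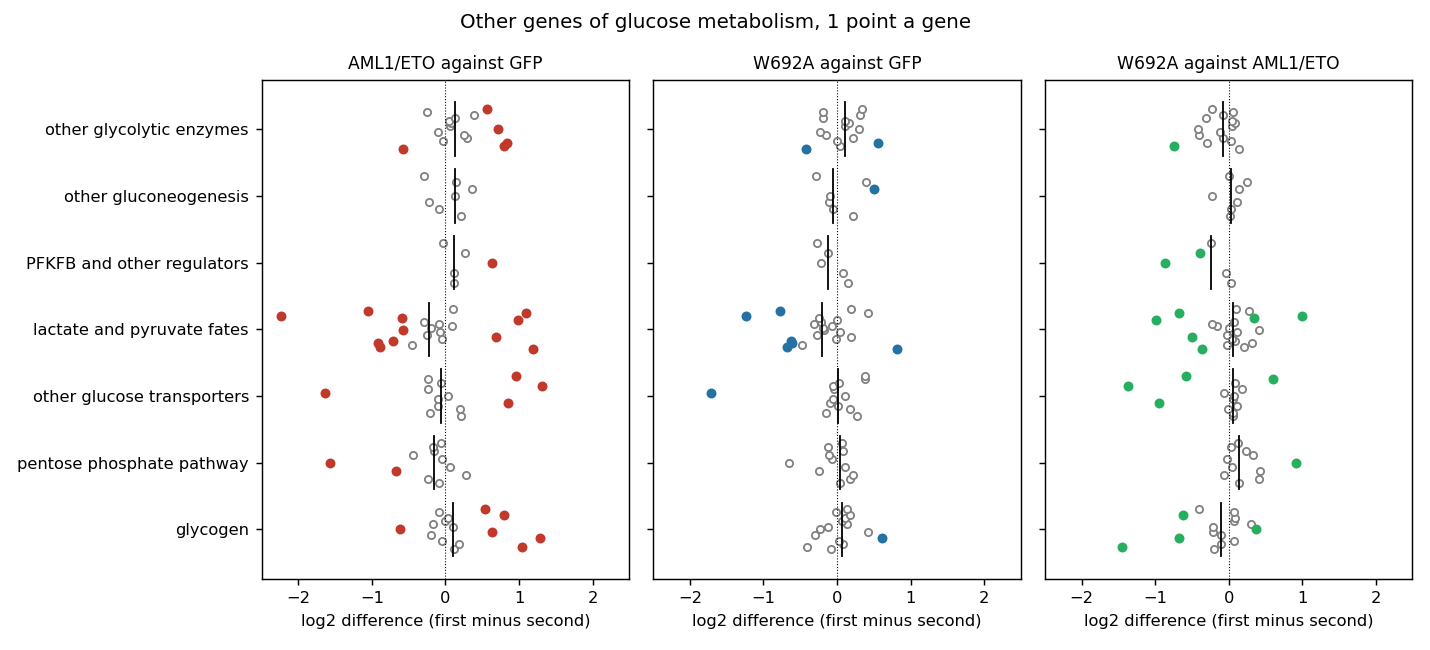
Log2 difference (horizontal axis, first group minus second) of the 86 measured genes of 7 glucose metabolism lists in each comparison, 1 point a gene; filled points passed limma at an adjusted p under 0.05, grey open points did not, and vertical bars are list medians. Lactate and pyruvate genes spread farthest with AML1/ETO, with 4 of 20 higher and 7 lower (55% called against 28.6% of all genes). The share of all genes includes genes at background. Slc16a1 is the lowest point at -2.23.

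In the remaining steps of glycolysis 4 of 15 measured genes rose with AML1/ETO, 1 fell and 10 did not pass. That is 33.3% called, against 28.6% of all genes (12.9% higher, 15.8% lower). Aldoa, the main aldolase of most tissues, measured 8.36, 8.29 and 8.37 with GFP, 9.06, 9.27 and 9.06 with AML1/ETO and 8.17, 8.04, 8.73 and 8.60 with W692A. It rose 1.73-fold with AML1/ETO (0.79 ± 0.165, SE, limma adjusted p = 0.00167), overlapped between W692A and GFP, and was 1.68-fold lower with W692A than with AML1/ETO (limma adjusted p = 0.00247). Aldoc, the brain-type aldolase, rose 1.79-fold with AML1/ETO and 1.47-fold with W692A (limma adjusted p = 0.000124 and 0.00584), while with the Gapdh covariate the W692A log2 difference was 0.62, against 0.55, but did not pass (limma adjusted p = 0.188). Further genes of this list are named after their values were seen. Hkdc1 and Tpi1, triose phosphate isomerase, were the other rises with AML1/ETO, and Adpgk, an ADP-dependent glucokinase, was the fall, with Hkdc1 and Adpgk at background in group means and Tpi1 1.48-fold higher (limma adjusted p = 0.00692; with the Gapdh covariate a log2 difference of 0.33, limma adjusted p = 0.186). With W692A 1 rose (Aldoc) and 1 fell (Adpgk), 13.3% called against 14.5% of all genes. The genes of the later steps Pgk1 and Pkm differed from GFP by 0.05 and -0.25 with AML1/ETO and by 0.10 and -0.19 with W692A, and neither passed.

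Of 7 measured gluconeogenesis genes beside the fructose bisphosphatases, 0 rose and 0 fell with AML1/ETO by limma (1 higher and 0 lower at an unadjusted p under 0.05), and 1 rose with W692A. With 12.9% and 5.45% of all genes higher in these comparisons, counts of 0 and 1 of 7 are near the background. The one with W692A was Pck2, the mitochondrial phosphoenolpyruvate carboxykinase, which was 1.41-fold higher than with GFP (0.50 ± 0.148, SE, limma adjusted p = 0.0351). The call ended in 7 of 22 alternative fits, among them those without GFP replicate 1 or 2 and without W692A replicate 2, 3 or 4 (limma adjusted p from 0.0561 to 0.122). A group mean exceeded background for 4 of the 7.

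The 5 measured regulators include the enzymes that make and break fructose 2,6-bisphosphate, an activator of phosphofructokinase and inhibitor of fructose-1,6-bisphosphatase. Of these 1 rose with AML1/ETO (20% called against 28.6% of all genes) and 0 with W692A by limma (0 at an unadjusted p under 0.05). Pfkfb3, the inducible kinase form, measured 2.15, 2.33 and 2.13 with GFP, 2.98, 2.53 and 3.02 with AML1/ETO and 2.15, 1.75, 1.99 and 2.05 with W692A. It rose 1.56-fold with AML1/ETO (0.64 ± 0.150, SE, limma adjusted p = 0.00403), though not with the spike-in level as a covariate (0.40, limma adjusted p = 0.109). It was at least 1.71-fold lower with W692A than with AML1/ETO (limma adjusted p = 0.000412), which ended with the mean of its probe sets (-0.23, limma adjusted p = 0.0923). Pfkfb4 was at least 1.07-fold lower with W692A than with AML1/ETO, next to background (limma adjusted p = 0.023). That call was lost in 7 of 22 alternative fits, among them those without AML1/ETO replicate 1 or 3 or W692A replicate 2 (limma adjusted p from 0.0594 to 0.0886). The fit with the Gapdh covariate was another (-0.36, limma adjusted p = 0.0862).

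Genes of lactate and pyruvate included Slc16a1, the gene of the 86 that differed most between AML1/ETO and GFP. With AML1/ETO 4 of 20 rose, 7 fell and 9 did not pass, and with W692A 1 rose and 5 fell. The shares called were 55% and 30%, against 28.6% and 14.5% of all genes, which include genes at background. Of the 20 genes, 12 had a group mean above the bound. In the fit of only the 8820 such genes of the arrays, 4863 passed with AML1/ETO and 2698 with W692A. Slc16a1, which encodes the lactate and pyruvate transporter MCT1, measured 5.88, 6.35 and 5.93 with GFP, 3.47, 3.77 and 4.21 with AML1/ETO and 4.87, 5.05, 4.56 and 4.78 with W692A, and no 2 groups overlapped. The fall was 4.70-fold with AML1/ETO (-2.23 ± 0.187 on the log2 scale, SE; limma adjusted p = 3.51e-07) and 2.36-fold with W692A (-1.24 ± 0.175, limma adjusted p = 0.000207), and W692A was 1.99-fold above AML1/ETO (limma adjusted p = 0.000739). The W692A fall did not pass with the Gapdh covariate (-0.67, limma adjusted p = 0.22).

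Bsg, the gene of basigin, the chaperone that carries MCT1 and MCT4 to the membrane, ran the other way. Its values were 4.78, 4.87 and 5.08 with GFP, 6.26, 6.13 and 5.90 with AML1/ETO and 5.73, 5.75, 5.81 and 5.64 with W692A. It rose 2.28-fold with AML1/ETO (limma adjusted p = 4.23e-06) and 1.77-fold with W692A (limma adjusted p = 0.000268; with the Gapdh covariate the log2 difference was 0.58, limma adjusted p = 0.178). Ldhb, the other main lactate dehydrogenase subunit, fell 1.90-fold with AML1/ETO (limma adjusted p = 0.000409) and 1.52-fold with W692A (limma adjusted p = 0.0134, but 0.0653 without GFP replicate 1). Dlat, the acetyltransferase subunit of pyruvate dehydrogenase, fell 1.86-fold with AML1/ETO (limma adjusted p = 3.28e-05) and 1.60-fold with W692A (limma adjusted p = 0.000709). With the Gapdh covariate the W692A difference of Dlat was -0.52 (limma adjusted p = 0.22). Pdp1, a pyruvate dehydrogenase phosphatase, exceeded both other groups at least 1.15-fold with AML1/ETO. Its GFP and W692A arrays were all below the bound, and 2 of 3 AML1/ETO arrays were above it.

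Mpc1, a subunit of the mitochondrial pyruvate carrier, was 1.41-fold lower with W692A than with AML1/ETO (limma adjusted p = 0.0254), and Pdp2 1.27-fold higher (limma adjusted p = 0.0337). With AML1/ETO against GFP, Mpc1 rose (log2 difference 0.69, limma adjusted p = 0.00327) and Pdp2 fell (-0.59, limma adjusted p = 0.00102), the former not with the Gapdh covariate (0.57, limma adjusted p = 0.056). Both calls between the constructs were fragile. The Mpc1 call ended without AML1/ETO replicate 1 or 2 or W692A replicate 3 or 4 (limma adjusted p from 0.0533 to 0.153), and that of Pdp2 without AML1/ETO replicate 1 or 2 or W692A replicate 1 or 4 (from 0.0745 to 0.14). The Pdp2 call also ended with the Gapdh covariate (0.38, limma adjusted p = 0.0579).

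The list of glucose transporters other than Slc2a1, which also holds Txnip, an inhibitor of glucose uptake, divided. With AML1/ETO 3 of 13 rose (Slc2a9, Txnip and Slc2a3), 1 fell and 9 did not pass (30.8% called against 28.6% of all genes). With W692A 0 rose and 1 fell by limma, 7.69% against 14.5% (1 and 1 at an unadjusted p under 0.05). Slc2a3, the gene of the high-affinity transporter GLUT3, measured 6.57, 6.39 and 6.12 with GFP, 7.16, 6.97 and 7.50 with AML1/ETO and 6.25, 6.28, 6.33 and 6.22 with W692A. The AML1/ETO arrays lay above all others, 1.80-fold above GFP (limma adjusted p = 0.000374), and W692A overlapped GFP, with 1.92-fold between the constructs (-0.94 ± 0.138, SE, limma adjusted p = 0.000163). Slc2a6, the gene of the lysosomal GLUT6, was 5.02, 4.74 and 4.73 with GFP, 3.09, 3.23 and 3.24 with AML1/ETO and 3.04, 3.09, 3.02 and 3.34 with W692A. It fell 3.12-fold with AML1/ETO (limma adjusted p = 1.72e-07) and 3.27-fold with W692A (limma adjusted p = 2.09e-07), and the constructs overlapped.

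Txnip, which encodes a glucose-induced inhibitor of glucose uptake, rose 1.95-fold with AML1/ETO (0.96 ± 0.177, SE, limma adjusted p = 0.000611). Slc2a9, a urate transporter of the same family, was above background on 2 of 3 AML1/ETO arrays and on no other array, exceeding either other group at least 1.30-fold (limma adjusted p = 0.000177 against GFP and 0.000132 against W692A).

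Of 15 measured glycogen genes 5 were higher with AML1/ETO, 1 was lower and 9 did not pass (40% called). Over all genes 28.6% were called, 12.9% higher and 15.8% lower. Gyg, the gene of glycogenin, the primer of glycogen, measured 8.56, 8.54 and 8.71 with GFP, 9.47, 9.61 and 9.86 with AML1/ETO and 7.92, 8.21, 8.25 and 8.41 with W692A. It rose 2.06-fold with AML1/ETO (1.04 ± 0.143, SE, limma adjusted p = 4.63e-05) and was 2.73-fold lower with W692A than with AML1/ETO (limma adjusted p = 2.57e-06), and the W692A arrays were the lowest 4 of the 10. Pgm1, a phosphoglucomutase, rose 2.43-fold with AML1/ETO and 1.53-fold with W692A (limma adjusted p = 8.12e-06 and 0.00758). With the Gapdh covariate its W692A log2 difference was 0.83, against 0.61, but did not pass (limma adjusted p = 0.0862). Phka2, a regulatory subunit of phosphorylase kinase, fell 1.53-fold with AML1/ETO (limma adjusted p = 0.00121). W692A was 1.30-fold above AML1/ETO for it (limma adjusted p = 0.029), a call lost in 8 of 22 alternative fits, among them those without AML1/ETO replicate 1 or 3 or W692A replicate 3 or 4 (from 0.0656 to 0.117). The Gapdh covariate also ended this Phka2 call (0.30, limma adjusted p = 0.148).

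In the pentose phosphate pathway, which branches off at glucose 6-phosphate, 0 of 11 measured genes rose and 2 fell with AML1/ETO by limma (1 and 2 at an unadjusted p under 0.05). With W692A 0 rose and 0 fell by limma (0 and 1 at an unadjusted p under 0.05). The shares called were 18.2% with AML1/ETO and 0% with W692A, against 28.6% and 14.5% of all genes. Rpia, ribose 5-phosphate isomerase, measured 6.32, 6.78 and 6.68 with GFP, 4.49, 5.34 and 5.26 with AML1/ETO and 5.48, 6.30, 5.97 and 6.01 with W692A. It fell 2.96-fold with AML1/ETO (-1.57 ± 0.228, SE, limma adjusted p = 7.45e-05), and W692A was 1.88-fold above AML1/ETO (limma adjusted p = 0.00603). Pgls, the lactonase, fell 1.59-fold with AML1/ETO (limma adjusted p = 0.0112), a call that ended without GFP replicate 3 (limma adjusted p = 0.0627), without AML1/ETO replicate 1 (0.0594) and with the spike-in covariate (0.192).

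Marker lists of other blood cells differed between groups along with these genes. The mean of 11 monocyte and macrophage markers ran from 3.53 to 3.70 with GFP, from 4.10 to 4.44 with AML1/ETO and from 4.04 to 4.21 with W692A. Of these, 5 passed as higher and 0 as lower with AML1/ETO and 4 and 0 with W692A, and Ccr2, Fcgr1 and Marco were below background on every array. For these and the later marker counts, all genes gave 12.9% higher and 15.8% lower with AML1/ETO, and 5.45% and 9.07% with W692A. The mean of 8 mast cell and basophil markers ran from 3.27 to 3.85 with GFP, 4.90 to 5.73 with AML1/ETO and 4.07 to 4.32 with W692A. The order of groups was the same as for Fbp1, Slc2a1 and Hk1. Of the 8, 4 passed as higher and 0 as lower with AML1/ETO, and 3 and 0 with W692A. Fcer1a (means 2.93, 3.12 and 2.75 with GFP, AML1/ETO and W692A) and Mcpt8 (3.33, 3.59 and 2.66) were lowest with W692A. Tpsb2 and Cma1 of this list were below background on every array. The mean of 9 erythroid markers was 2.32 to 2.51 with GFP, 1.06 to 1.28 with AML1/ETO and 1.20 to 1.33 with W692A, and 6 of the 9 were below background throughout. The mean of 6 eosinophil markers was 4.35 to 4.54, 2.73 to 3.40 and 2.69 to 2.80 in the same order, with Il5ra and Ccr3 at background, and that of 7 megakaryocyte markers 3.94 to 4.28, 3.52 to 3.60 and 3.15 to 3.55, with Gp6 at background. Members of the megakaryocyte list went both ways, 2 higher and 4 lower with AML1/ETO and 1 higher and 4 lower with W692A. The mean of 10 lymphoid markers was 2.26 to 2.44, 2.32 to 2.41 and 2.13 to 2.29, with Cd3e and Pax5 among 7 at background. That of 10 stromal and endothelial markers was 1.09 to 1.20, 1.60 to 1.78 and 1.09 to 1.12, with 6 at background. Members of both lists went both ways. With AML1/ETO 1 lymphoid marker passed as higher and 1 as lower, and with W692A 1 and 2. Dntt means were 5.48, 7.62 and 6.78 with GFP, AML1/ETO and W692A, and Thy1 means 7.34, 5.23 and 5.82. Of the stromal list 4 passed as higher and 1 as lower with AML1/ETO, and 2 and 1 with W692A. Its Col1a2 means were 1.24, 5.07 and 1.68, Sparc 0.90, 4.59 and 2.51, and Pdgfrb 3.95, 0.63 and 0.95. The part of these shifts in the glucose genes was not tested. In bulk samples a change in the share of a cell type and a change of RNA per cell cannot be told apart.

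**Figure D5:**
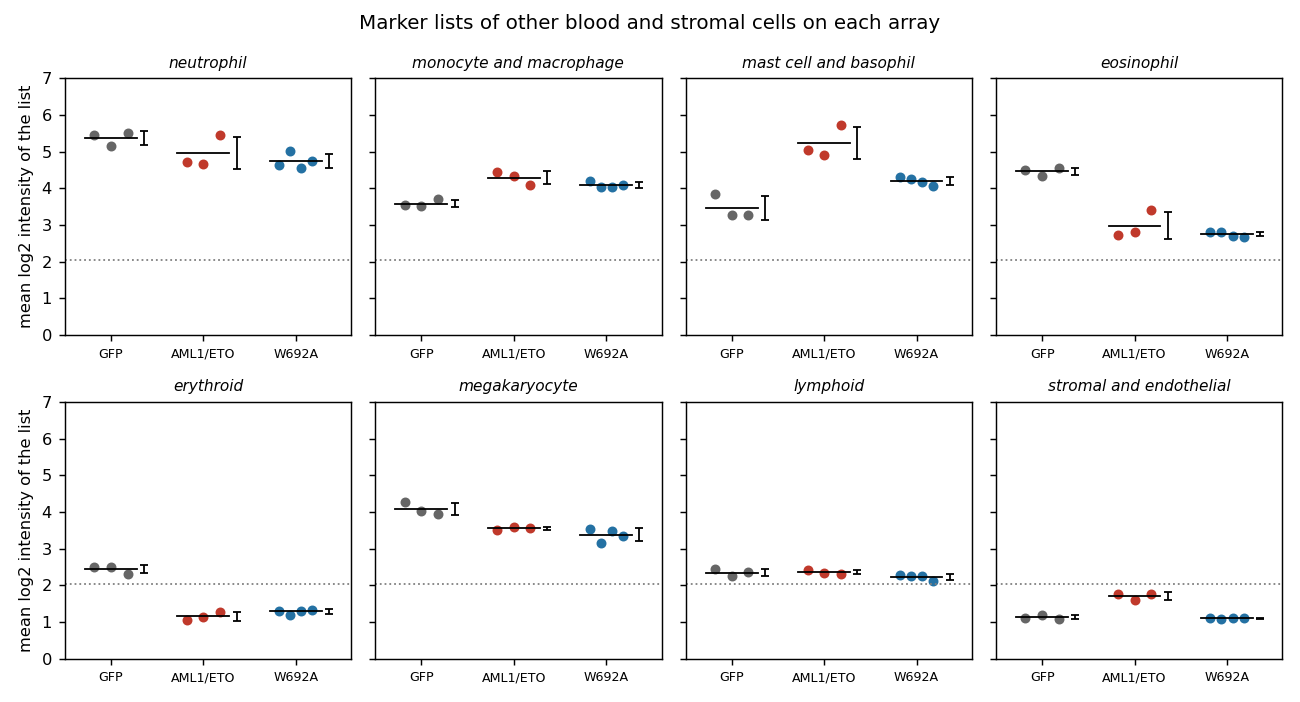
Mean log2 intensity of each marker list (vertical axis) on each array, by group; points are arrays, lines group means, bars ± SD, and the dotted line is the background bound of 2.04. The monocyte and mast cell lists are higher on every array of both constructs than on the GFP arrays, the eosinophil, erythroid and megakaryocyte lists lower, and AML1/ETO replicate 3 is the highest array of its group for the neutrophil, mast cell and eosinophil lists, among others.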

How the data were processed

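Each of 10 arrays measured RNA from 1 sample of sorted mouse marrow cells. Per the labels, 50 ng of total RNA was amplified in 2 rounds and labelled with biotin. The authors deposited log2 intensities, 1 per probe set and array, made with RMA per the submitters' processing notes (no version given). The log base is not stated. Read as natural logarithms the values would reach 350219, beyond the 65535 of a 16-bit scanner, so base 2 was used. RMA sets all arrays to 1 intensity distribution, which hides differences in total RNA.

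Of 45101 probe sets 34958 had 1 gene symbol in the platform annotation and 932 had several, which were not used. Symbols were updated by gene identifier to GRCm38.p6 for 34741, giving 18193 genes, each by its probe set with the highest mean. Groups were compared with limma 3.58.1 (R 4.3.3; lmFit, eBayes) in 1 fit of all arrays, with Benjamini-Hochberg adjustment across the 18193 genes and a threshold of 0.05. The script was tested on simulated data. Folds against a group with arrays below the bound of 2.04 are lower limits. The members and gene lists were chosen with earlier results of these data known. Named pathway genes were, per list and comparison, the called genes with non-overlapping arrays and a group mean above the bound that moved most. Up to 2 were named in each direction. Further glycolysis genes are marked as named after their values were seen. Also given beside the rule were the differences from GFP of Dlat, Slc2a3, Mpc1 and Pdp2 with AML1/ETO and of Ldhb with W692A. Depth does not apply to arrays, and their number limits the precision. Neutrophil, monocyte, mast cell, eosinophil, erythroid, megakaryocyte, lymphoid, stromal and liver and kidney markers were also listed. The spike-in covariate was added after seeing the data.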

Additional observations from a re-analysis of the deposited data

Results flagged for a closer look

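Pfkfb4 on W692A replicate 2 was 1.63, apart from the 1.77 to 1.79 of the other W692A arrays by a gap of 0.854 of the group's range, beyond Dixon's 95% critical value for 4 samples. It was the 1 such array value among 31 genes examined in that group, where chance gives about 1 in 20, and all 4 values lie below the background bound.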

How the results depend on the processing

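Of 207 recomputed counts (9 counts under 23 alternatives), 194 stayed within 1.5 times the value reported. With the Gapdh 3′ minus 5′ covariate, W692A against GFP gave 506 genes in place of 2642, 4 glucose pathway genes in place of 11 and 1 member in place of 2, and W692A against AML1/ETO gave 1 member in place of 4. With a 1.5-fold minimum 1637 genes passed for W692A against GFP, and 2317 in place of 3765 and 1 member for W692A against AML1/ETO. Averaging probe sets per gene left 1 member in the latter. Leaving out 1 array in turn gave 1 to 4 members and 11 to 18 pathway genes there, 2 members and 9 to 12 pathway genes for W692A against GFP, and 3 to 4 members and 28 to 30 pathway genes for AML1/ETO against GFP. The fewest, 1 member, came without AML1/ETO replicate 3.

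Fbp1 differences ranged over the alternatives from 6.16 to 6.41 (AML1/ETO against GFP), 4.81 to 5.10 (W692A against GFP) and -1.42 to -1.18 (between the constructs). Signs turned for small uncalled differences. For Hk3, AML1/ETO against GFP was -0.17 with averaged probe sets and -0.10 with the spike-in covariate, and leaving out 1 array gave a log2 difference of -0.11 to 0.19. For Hk3, W692A against GFP was -0.019 both with averaged probe sets and with the replicate block, and leaving out 1 array gave -0.019 to 0.20. For Hk3, W692A against AML1/ETO was -0.093 with the replicate block, and leaving out 1 array gave -0.093 to 0.22. Between the constructs Hk2 was 0.047 after quantile normalization and Pfkm 0.035 with the Gapdh covariate, and leaving out 1 array gave -0.22 to 0.048 for Pfkm. For AML1/ETO against GFP, leaving out 1 array gave -0.018 to 0.24 for Pfkp and -0.17 to 0.020 for Fbp2. The cause was not tested. Same-numbered arrays correlated in their deviations at -0.12 to 0.44, so the numbers were not taken to pair samples (own number best for 2, 4 and 2 of 6 arrays). With the replicate block 5272, 2344 and 3509 genes passed, and of the members' calls it ended that of Pfkm with AML1/ETO (limma adjusted p = 0.0549) and that of Pfkp between the constructs. Signals at the bound, as for Fbp2, Hk2 and Pfkm, limit what could be seen.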

Other observations

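The genes beside Fbp1 on chromosome 13 did not share its levels. Fbp2, its nearest annotated protein-coding neighbour on one side, was at background. Aopep, an aminopeptidase gene and the nearest on the other side, ran from 4.80 to 5.13 with GFP, 4.61 to 4.74 with AML1/ETO and 4.49 to 4.85 with W692A, and differed from GFP by -0.33 with AML1/ETO (limma adjusted p = 0.0859) and -0.33 with W692A (limma adjusted p = 0.109). Fancc, a Fanconi anaemia gene next to it, differed by 0.24 and 0.30 (limma adjusted p = 0.264 and 0.174). Ptch1, the Hedgehog receptor gene after that, fell with AML1/ETO, with a log2 difference of -0.97 ± 0.144 (SE, limma adjusted p = 8.76e-05), and with W692A it differed by -0.23 (limma adjusted p = 0.328).

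Gapdh, a glycolytic enzyme left out of the gene table, has control probe sets on the array. The 3′ one ran from 10.64 to 10.78 with GFP, from 10.98 to 11.05 with AML1/ETO and from 10.78 to 10.86 with W692A, so that AML1/ETO lay above both other groups. The middle one ran from 7.48 to 7.75, from 7.61 to 7.82 and from 7.43 to 7.75, and all groups overlapped. The 5′ one ran from 5.67 to 5.82 with GFP, from 5.98 to 6.97 with AML1/ETO and from 6.68 to 7.04 with W692A, with both constructs above GFP.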
